A study of Bos taurus with 14 samples.

Results

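RGS16 and GNA14 are a pair of G protein signalling genes, 2 of the 24616 genes counted in bovine endometrial explants, and both were among the 13233 genes that reached 10 counts in all 14 libraries. They were chosen by the study's calls for sPIF against Control in these same explants, so their sPIF values are given as a description without a test. The identifiers are ENSBTAG00000004305 for RGS16 and ENSBTAG00000021127 for GNA14. RGS16 was lower in the sPIF explant than in the Control explant of all 7 cows, and GNA14 was higher in the sPIF explant of 6 of 7 cows. Apart from treatment, RGS16 was lower in every cow of the low progesterone group than in every cow of the high progesterone group. Cow means of these groups did not overlap, in either direction, in 3.38% of the genes tested (447 of 13233 genes). The RGS16 difference did not pass the main test across all genes, that of edgeR. It passed that of DESeq2, which called 24 of 13209 genes.

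A receptor that couples to a heterotrimeric G protein makes the alpha subunit exchange GDP for GTP, and the GTP-bound subunit then acts on its effector enzymes until it hydrolyses the GTP. GNA14 encodes an alpha subunit of the Gq class, which activates phospholipase C beta and so releases calcium from intracellular stores. RGS16 encodes a regulator of G protein signalling, a GTPase-activating protein that shortens the active state of Gi and Gq class alpha subunits. In the bovine endometrium, receptors of this kind respond to oxytocin and to prostaglandins.

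Explants were taken after slaughter from the endometrium of 7 heifers, named here as cows 1 to 7, with an ovary staged as follicular by its morphology, from intercaruncular tissue of the uterine horn on that side. From each cow, 1 explant was cultured for 30 h in medium without sPIF (Control), with an equal amount of the solvent DMSO, and 1 in medium with 100 nM sPIF, a synthetic form of the preimplantation factor peptide that embryos secrete. The 8 libraries of cows 1 to 4 were sequenced in lane 1 and the 6 libraries of cows 5 to 7 in lane 2, and the study placed cows 1, 6 and 7 in a low progesterone group and the other 4 cows in a high progesterone group by their blood serum. The serum levels of the high group were above those of the follicular stage, so the phase of the cycle of these 4 cows is uncertain. Total counts ranged from 15885642 to 28625724 per library. An explant holds several cell types, so fewer cells of a type and less RNA per cell cannot be told apart in these values.

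The libraries differed in ways that bear on both genes. Of the genes tested, 39.6% passed an adjusted p of 0.1 between the lanes (5236 of 13233 genes, edgeR quasi-likelihood test), so lane was kept in view throughout. Cow 3 also stood apart, because the SD over genes of its log2 difference between sPIF and Control was 0.76, against 0.35 to 0.51 in the other cows. The sPIF fold changes of the main fit over all cows, and the interactions with lane and with progesterone fitted separately, are therefore given with and without cow 3. Levels are given in CPM, the count of a gene scaled to a common library size over the tested genes, with TMM normalization.

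The first comparison was that of the sPIF and Control explants within each cow. RGS16, the GTPase-activating protein, was at 50.4 CPM in the Control and 41.5 CPM in the sPIF explant of cow 1, at 75.8 and 43.7 CPM in cow 6, and at 59.0 and 47.4 CPM in cow 7. In the high progesterone cows the Control and sPIF levels were 85.4 and 67.4 CPM in cow 2, 121.3 and 64.7 CPM in cow 3, 94.1 and 73.8 CPM in cow 4, and 137.1 and 101.1 CPM in cow 5. The sPIF explant had the lower level in each of the 7 cows, while the Control and sPIF groups as a whole overlapped.

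The mean RGS16 level was 89.02 ± 31.5 CPM in Control and 62.8 ± 21.1 CPM in sPIF explants (SD, n = 7 cows each). The fitted log2 fold change was -0.49 with a standard error of 0.09, and it was -0.42 without cow 3. The level was lower by the smallest share in cow 1, where the percent change was -17.7, and by the greatest share in cow 3, where it was -46.7. RGS16 had between 823 and 3299 counts per library, and each of these 7 differences lay outside its counting error. That error leaves out variation between explants of a cow, so this is no test of sPIF.

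GNA14, the Gq class alpha subunit, went the other way in most cows. In the high progesterone cows its Control and sPIF levels were 4.60 and 8.59 CPM in cow 2, 1.95 and 3.70 CPM in cow 3, 4.47 and 7.16 CPM in cow 4, and 5.87 and 14.0 CPM in cow 5. In the low progesterone cows they were 3.31 and 2.34 CPM in cow 1, 8.33 and 14.6 CPM in cow 6, and 3.52 and 6.10 CPM in cow 7. Cow 1 was the exception with a lower level in the sPIF explant, and the Control and sPIF groups overlapped.

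Mean GNA14 levels were 4.58 ± 2.06 CPM in Control and 8.07 ± 4.74 CPM in sPIF explants (SD, n = 7 cows each). The fitted log2 fold change was 0.72 with a standard error of 0.19. It was 0.70 without cow 3 and 0.89 without cow 1. In the 6 cows other than cow 1 the ratio of the sPIF to the Control level lay between 1.60 and 2.39.

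The counts behind GNA14 were low, at 49 to 407 per library. In cow 1, with 54 Control and 49 sPIF counts, the ratio was 0.71 with an exact 95% interval from 0.47 to 1.06, so the opposite direction in this cow was within counting error. In the other 6 cows the interval lay above 1, with the widest span in cow 3, from 1.31 to 2.76. These intervals cover counting error only, not variation between explants of a cow, and are no test of sPIF.

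**Figure D1:**
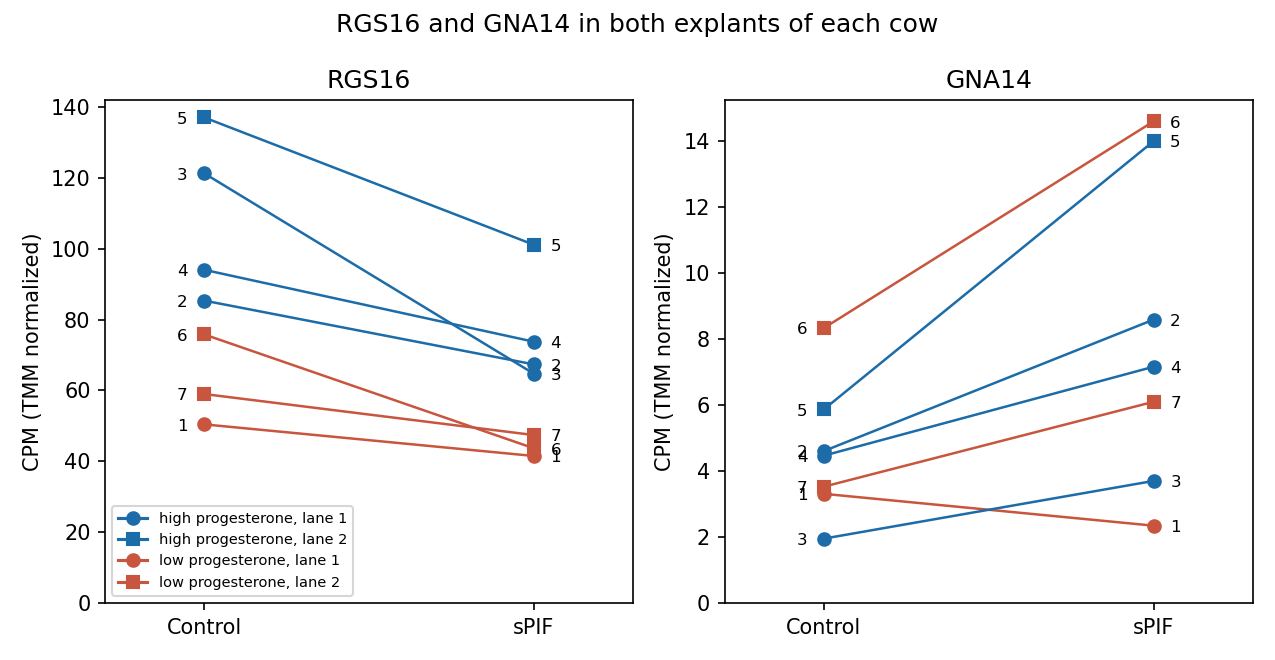
CPM of RGS16 (left) and GNA14 (right) in the Control and sPIF explants, with 1 line per cow, the cow's number beside each point, colour for progesterone group and marker shape for lane. All 7 lines go down for RGS16, from 50.4 to 137.1 CPM in Control to 41.5 to 101.1 CPM in sPIF explants, and 6 of 7 go up for GNA14.

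In the fits across all genes, 0% of the genes tested passed an adjusted p of 0.1 for sPIF against Control with edgeR, where 1061 genes had an unadjusted p under 0.05, and 0.756% passed with the Wald test of DESeq2. Of RGS16 and GNA14, 0 of 2 passed with edgeR and 2 of 2 with DESeq2, and nothing is read from these counts because the genes were chosen by this contrast. By size, the RGS16 log2 fold change was below that of all but 1.83% of the genes tested, and that of GNA14 was above 99.7% of them. A difference of 1 sign in all 7 cows, as RGS16 had, was seen in 388 genes, or 2.93% of those tested. The choice by this contrast favours a large size and 1 sign, so these positions are a description too.

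Most of the variation of both genes lay between cows. For RGS16, differences between cows made up 72.6% of the sum of squares of log2 CPM over the 14 libraries, treatment 22.3% and the remainder 5.10%. For GNA14 the shares were 73.5% between cows, 17.1% for treatment and 9.31% for the remainder. Over all genes tested the median shares were 75.6% between cows, 2.32% for treatment and 19.4% for the remainder. The spread of the difference within cows was smaller for RGS16, with an SD of 0.25 on the log2 scale, than for GNA14, with 0.54. The median over genes was 0.32. The choice of both genes by the paired sPIF contrast favours a large treatment share, a small remainder and a small spread within cows. Their values beside the medians are therefore a description only.

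RGS16 had the lower levels in the low progesterone group, a difference that passed the test across genes in DESeq2 and not in edgeR. Averaged over both explants of a cow, RGS16 was at 46.0, 59.7 and 53.2 CPM in the low progesterone cows 1, 6 and 7, and at 76.4, 93.0, 83.9 and 119.1 CPM in the high progesterone cows 2 to 5. The highest low progesterone cow, cow 6, was below the lowest high progesterone cow, cow 2, so the groups did not overlap. The same separation held within the Control explants, where the highest low level was 75.8 and the lowest high level 85.4 CPM, and within the sPIF explants, where they were 47.4 and 64.7 CPM.

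On counts summed over both explants of a cow, the RGS16 log2 fold change of low against high progesterone was -0.85 (95% interval -1.29 to -0.41) with an adjusted p of 0.852 in edgeR. With the 35 ways to divide the cows into groups of 4 and 3, an exact permutation test (two-sided) on the cow means of log2 CPM gave p = 0.0286, the smallest p it can give. With DESeq2 the adjusted p was 0.0931, and without cow 3 the edgeR log2 fold change was -0.82 with an adjusted p of 0.989. Of RGS16 and GNA14, 1 of 2 had cow means that did not overlap between the progesterone groups, beside 3.38% of the genes tested (447 of 13233 genes), and 0 of 2 passed the edgeR test, beside 0% of the genes tested. With edgeR, 458 genes had an unadjusted p under 0.05 in this comparison. DESeq2 called 24 of the 13209 genes with an adjusted p.

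Because 1 low progesterone cow was in lane 1 and 2 were in lane 2, the RGS16 levels were also set side by side within lanes. In lane 1, cow 1 was at 46.0 CPM and the 3 high progesterone cows lay between 76.4 and 93.0 CPM. In lane 2, cows 6 and 7 were at 59.7 and 53.2 CPM and the high progesterone cow 5 was at 119.1 CPM. The order was thus the same in both lanes, which held too few cows for a test, and the log2 fold change with lane as a term was -0.99.

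GNA14 did not separate by progesterone group. Averaged over both explants, GNA14 was at 2.83, 11.5 and 4.81 CPM in the low progesterone cows 1, 6 and 7. In the high progesterone cows 2 to 5 it was at 6.60, 2.82, 5.81 and 9.93 CPM. The low progesterone cows included the cow with the highest GNA14 level and a cow near the lowest, so their range spanned nearly that of all cows. The log2 fold change was -0.03 with a 95% interval from -1.29 to 1.23 and an adjusted p of 0.991, an interval wide enough to hold a difference in either direction. With lane as a term it was -0.65 (95% interval -1.71 to 0.41) and did not pass. On cow means of log2 CPM the low minus high difference was -0.70 within lane 1 and -0.34 within lane 2. Both of these values rest on 1 cow on a side.

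GNA14 had its higher mean level in lane 2, a difference that passed the test across genes in DESeq2 and not in edgeR. It was at 2.83, 6.60, 2.82 and 5.81 CPM in cows 1 to 4 of lane 1, and at 9.93, 11.5 and 4.81 CPM in cows 5 to 7 of lane 2, as means of both explants. Cows 5 and 6 were above every cow of lane 1 and cow 7 was within the lane 1 range, so the lanes overlapped. The log2 fold change of lane 2 against lane 1 was 1.02 (95% interval 0.06 to 1.98) with an adjusted p of 0.101 in edgeR, which missed the threshold of 0.1. It passed with DESeq2, at an adjusted p of 0.0487, in a fit that called 5637 of the 13223 genes with an adjusted p. The alternatives gave adjusted p from 0.0487 to 0.262. In edgeR the adjusted p was also under the threshold without cow 2, 4 or 7, at 0.0884, 0.0931 and 0.0538, and it was 0.180 without cow 3. The exact permutation test gave p = 0.171. Lane cannot be told apart from other differences between these cows.

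RGS16 showed a difference near 0 between the lanes when progesterone group was left aside. Its cow means in lane 1 lay between 46.0 and 93.0 CPM and those in lane 2 between 53.2 and 119.1 CPM, so the lanes overlapped. The log2 fold change was -0.02 (95% interval -0.78 to 0.75) with an adjusted p of 0.976, and the exact permutation test gave p = 1. With progesterone as a term the log2 fold change was 0.36 (95% interval 0.04 to 0.67) with an adjusted p of 0.103. Within the low progesterone group RGS16 was at 46.0 CPM in lane 1 (n = 1 cow) and at a mean of 56.5 CPM in lane 2 (n = 2 cows). Within the high progesterone group it was at a mean of 84.4 CPM in lane 1 (n = 3 cows) and at 119.1 CPM in lane 2 (n = 1 cow). Lane 2 was the higher in both groups, each time with 1 cow on a side. Of RGS16 and GNA14, 0 of 2 passed the lane test in edgeR, beside 39.6% of all genes tested. GNA14 alone passed it in DESeq2, which called 5637 of the 13223 genes that had an adjusted p. Of the pair, 0 of 2 had cow means that did not overlap between lanes, beside 39.7% of the genes tested.

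Whether the sPIF difference itself depended on lane or progesterone was described by interactions. They rest on the same differences within cows that chose the genes, and a choice by the paired contrast favours a small spread over cows, so the interactions are given without a test. In RGS16 the log2 difference within cows averaged -0.47 ± 0.29 in lane 1 (SD, n = 4 cows) and -0.52 ± 0.25 in lane 2 (SD, n = 3 cows), and it was -0.51 ± 0.27 in high (n = 4) and -0.46 ± 0.29 in low progesterone cows (n = 3). The differences in these groups overlapped. The interaction was -0.05 with lane (95% interval -0.49 to 0.39) and 0.04 with progesterone (95% interval -0.42 to 0.51). Without cow 3 these values were -0.19 and -0.09.

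For GNA14 the mean log2 difference was 0.49 ± 0.66 in lane 1 (SD, n = 4 cows) and 0.94 ± 0.26 in lane 2 (SD, n = 3 cows). It was 0.92 ± 0.24 in high (SD, n = 4 cows) and 0.37 ± 0.73 in low progesterone cows (SD, n = 3 cows). Cow 1, in lane 1 and of low progesterone, held the only negative GNA14 difference and set the wide spread in both of its groups. The interaction was 0.43 with lane (95% interval -0.41 to 1.26) and -0.53 with progesterone (95% interval -1.36 to 0.29). They were 0.13 and -0.13 without cow 1, and 0.54 and -0.53 without cow 3. With the interaction with lane as a further term, chosen after seeing the data, the GNA14 interaction with progesterone was -0.89. Cow 1 was the only low progesterone cow of lane 1 in that fit, so the value is a description only. Of RGS16 and GNA14, 0 of 2 were called for either interaction with edgeR, beside 0% of the genes tested for lane and 0% for progesterone, and nothing is read from these counts. Over all genes, 1516 and 187 genes had an unadjusted p under 0.05 and DESeq2 called 175 and 0 genes.

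The levels of RGS16 and GNA14 were compared across cows, where the lanes overlapped for both genes. Over the 7 cow means of log2 CPM, Pearson's r was 0.290 (exact permutation p = 0.520) and Spearman's rho was 0.179 (exact permutation p = 0.713). Without cows 1 and 5, the farthest from the median of RGS16, r was -0.517. In Control explants alone r was 0.0064 (exact permutation p = 0.990). No relation between the levels of the genes was therefore detectable in 7 cows, and no correlation is given within lanes of 4 and 3 cows. Cow 5 had the highest RGS16 level and the second highest GNA14 level, while cow 1 had the lowest RGS16 level and nearly the lowest GNA14 level. Conversely, cow 3 had the second highest RGS16 level (93.0 CPM) and the lowest GNA14 level (2.82 CPM). Cow 6 had the highest GNA14 level (11.5 CPM) and an RGS16 level below the median (59.7 CPM). Of the differences within cows, which chose the genes, RGS16 and GNA14 had an r of -0.36 and a rho of -0.68, given as a description.

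A further 4 genes of G protein signalling had a symbol and could be measured, out of lists of 120 symbols for G protein subunits, regulators, effectors and receptors of which 6 were matched. They were selected on the same sPIF contrast, so their sPIF values are also a description. RGS2, a GTPase-activating protein selective for Gq class subunits, had a log2 fold change of -0.60 and was lower in the sPIF explant of all 7 cows, with differences from -1.43 in cow 6 to -0.18 in cow 1. The RGS2 differences of cows 1 and 7 were within counting error. Without cow 3 the RGS2 fold change was -0.57. RGS16 and RGS2 thus shared a direction opposite to that of the alpha subunit GNA14 in 6 of 7 cows.

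The other genes of this group encode receptors. CYSLTR2, a cysteinyl leukotriene receptor that couples to Gq, had a log2 fold change of -0.85, and CALCRL, a part of the receptors for calcitonin gene-related peptide and adrenomedullin, had one of -0.55, both lower in the sPIF explant of 7 of 7 cows, with the CYSLTR2 difference of cow 1 within counting error. PTGDR, a prostaglandin D2 receptor that couples to Gs, had a log2 fold change of -1.25 (-1.98 in the high and -0.24 in the low progesterone cows) and was higher in the sPIF explant of cow 1 only, and its difference in cow 7 was within counting error. Without cow 3 the log2 fold changes were -0.64 for CYSLTR2, -0.43 for CALCRL and -0.95 for PTGDR. Cow 1 was thus the exception for both GNA14 and PTGDR. Cow 3 had the lowest difference for PTGDR, CYSLTR2, CALCRL and RGS16 alike.

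**Figure D2:**
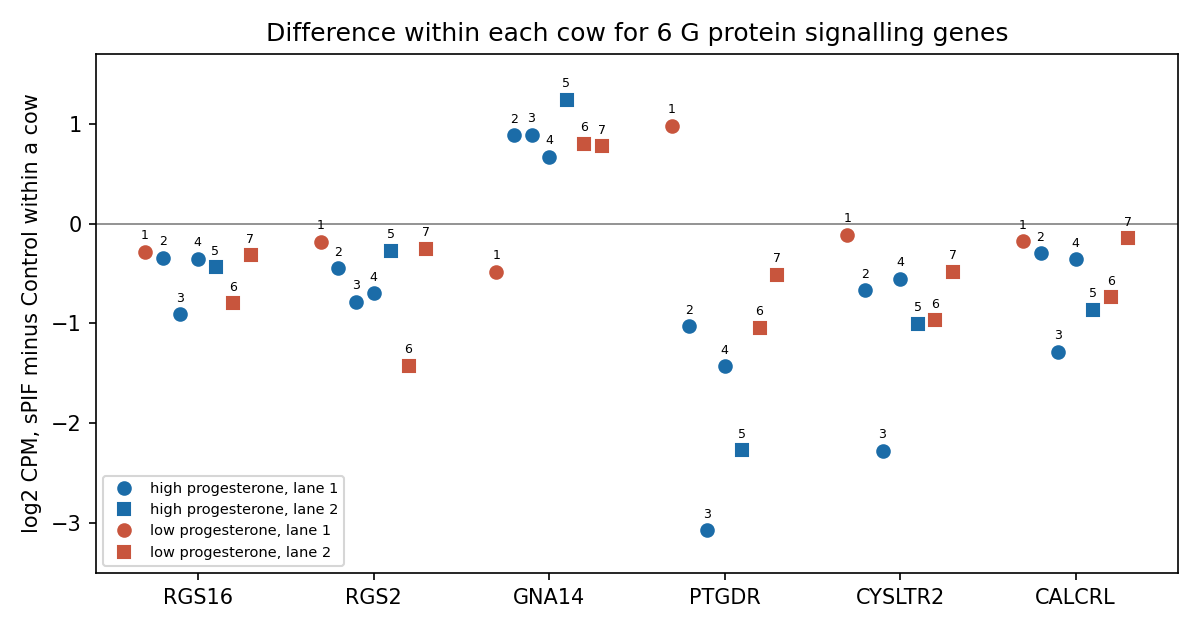
Difference in log2 CPM between the sPIF and Control explants of each cow for RGS16, RGS2, GNA14, PTGDR, CYSLTR2 and CALCRL, with 1 point per cow, its number above it, colour for progesterone group and marker shape for lane. GNA14 lies above 0 in all cows but cow 1, where it is -0.48, and RGS16 lies between -0.91 and -0.28.

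Between the lanes, 2 of these 4 genes passed the edgeR test, beside 39.6% of all genes tested. CALCRL was lower in lane 2, with a log2 fold change of -0.94 and an adjusted p of 0.00127, and CYSLTR2 was higher, with 0.72 and an adjusted p of 0.0682. The CYSLTR2 call was lost with progesterone as a term (0.57, adjusted p = 0.230) and in sPIF explants alone (0.82, adjusted p = 0.204). It was also lost without cow 1, 2, 3, 6 or 7, where the adjusted p was 0.141, 0.153, 0.110, 0.157 and 0.208. The log2 fold changes without these cows were 0.66, 0.63, 0.71, 0.70 and 0.50. PTGDR and RGS2 had values of -0.71 and -0.24 that did not pass. Between the progesterone groups, 0 of the 4 genes passed, beside 0% of all genes tested with edgeR. PTGDR had a log2 fold change of -0.85 with an adjusted p of 0.852, but it was -1.30 in Control and 0.20 in sPIF explants, so its direction turned. Cow means of these 4 genes overlapped between the progesterone groups. Those of RGS16 did not, as was so for 3.38% of all genes tested.

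Genes with patterns like those of RGS16 and GNA14 were sought among 85 other tested genes with a symbol, all of which came from the list chosen on the same explants. Over the 14 libraries, the 5 genes whose log2 CPM correlated most with RGS16 were GJC1 (r = 0.774), TWIST1 (0.719), VCAM1 (0.717), RPRM (0.700) and IGF2 (0.688). Over the 7 Control libraries, which carry no treatment difference, they were VCAM1 (0.819), PTGDR (0.815), IGF2 (0.808), RPRM (0.784) and GJC1 (0.723). The r values of these RGS16 genes were reached by 0.0529% to 0.438% of all genes over the 14 libraries and by 0.484% to 1.41% over the Control libraries, which are part of the 14. Over the 14 libraries these genes share with RGS16 the lower sPIF level by which the list was chosen, which can raise r. The Control libraries entered that choice too. Over them the median r with RGS16 was 0.221 among the 85 genes and -0.039 over all genes.

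For GNA14, the 5 genes with the highest r over the 14 libraries were SYT17 (0.814), FAT1 (0.720), PKDCC (0.462), SMTN (0.409) and TBX3 (0.404). Over the 7 Control libraries they were SYT17 (0.927), FSTL3 (0.738), FAT1 (0.712), DNAJB1 (0.709) and RHOF (0.705). The DNAJB1 value is that of ENSBTAG00000016874, which shares its symbol with another identifier of the study's list. The r of SYT17 was reached by 0.0756% of all genes tested over the 14 libraries and by 0.333% over the 7 Control libraries. The r values of PKDCC, SMTN and TBX3 were reached by 13.8%, 18.6% and 19.2% of all genes, and those of FSTL3, FAT1, DNAJB1 and RHOF in Control libraries by 5.95% to 7.72%, while FAT1 over the 14 libraries was reached by 0.763%. These correlations share libraries, lanes and, over the 14 libraries, the sPIF difference that chose the genes, and describe likeness only. Over the Control libraries the median r with GNA14 was 0.251 among the 85 genes with a symbol and 0.0568 over all genes.

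In the RefSeq annotation of the ARS-UCD2.0 assembly, GNA14 lies between VPS13A and GNAQ, which encodes another Gq class alpha subunit, and 1 long noncoding RNA gene overlaps it. The library kit does not mark the strand, so reads from GNA14 and from any overlapping gene on the other strand could not be told apart. The part of such reads in the GNA14 counts was not tested.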

How the data were processed

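The authors trimmed paired-end reads with Trimmomatic 0.36.0, mapped them to the UMD3.1 assembly with Bowtie2 2.2.6 and counted them with featureCounts 1.4.6, as the methods and processing notes state. They deposited raw counts per gene, with both runs of cows 5 to 7 added. The 1 row of column totals was left out. Lane and progesterone group came from the study's methods. RGS16, GNA14 and the gene lists were chosen with earlier results of these data known.

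Tests used edgeR 4.0.16 (R 4.3.3) with TMM normalization and quasi-likelihood fits that held cow as a block, and p-values were adjusted over 13233 genes (Benjamini-Hochberg, threshold 0.1) that reached 10 counts in all libraries. Lane and progesterone were tested on counts summed per cow. Log2 CPM used a prior count of 2. Alternatives were DESeq2 1.42.0, other normalizations and filters, no block and each cow left out. The edgeR fits for sPIF, lane and the interaction of sPIF with lane, and the DESeq2 fit for sPIF, were checked on simulated data. The progesterone fits and the permutation tests were not.

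Explants of a cow deviated together, with correlations over genes of 0.412 to 0.764 (median 0.667), against -0.559 to 0.543 (median -0.121) between cows, so the ranges overlapped. Pairing follows the labels. The named genes are RGS16, GNA14, matched genes of the G protein lists, and for each the 5 most correlated genes with a symbol. Symbols came from the study's supplementary gene list, where 27 of 102 identifiers had an extra 0 that was removed, those of RGS2 and PTGDR included. Of 24616 identifiers, 0 matched the RefSeq table, so 1 of 38 cell type marker symbols was matched and markers were not tested.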

Additional observations from a re-analysis of the deposited data

Results flagged for a closer look

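Among 54 overlapping sets of 4 or 7 cows examined for RGS16, GNA14 and the other 4 G protein signalling genes, 7 had a cow that lay far from the others relative to the range. Chance alone marks about 1 in 20 such sets. No explanation was tested.

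For GNA14, the log2 difference between sPIF and Control was -0.48 in cow 1, against 0.67 to 1.24 in the other 6 cows. The same value of -0.48 stood apart among the 4 cows of lane 1, where the others lay between 0.67 and 0.89. For RGS16, the difference of -0.91 in cow 3 lay far from the -0.35 to -0.28 of the other cows of lane 1.

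Cow 3 also stood apart for CYSLTR2, with a difference of -2.28 against -1.0015 to -0.11 in the other cows, and for CALCRL in lane 1, with a difference of -1.29 and an sPIF level of 55.1 CPM against 91.8 to 96.7 CPM. RGS2 was at 6.08 CPM in the sPIF explant of cow 2, against 11.8 to 12.8 CPM in the other cows of lane 1.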

How the results depend on the processing

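The log2 fold changes of RGS16 and GNA14 for sPIF against Control kept their direction in all 18 alternatives each, from -0.53 to -0.42 for RGS16 and from 0.42 to 0.96 for GNA14. Without cow as a block they were -0.50 and 0.82. Without each cow in turn they ranged from -0.53 to -0.42 and from 0.62 to 0.89. Both genes were chosen by this contrast in the same libraries, which favours a constant direction, so these ranges are a description and no test.

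The GNA14 level between lanes, which missed the threshold, passed it in DESeq2 (1.02, adjusted p = 0.0487), with median-of-ratios normalization (1.02, 0.0989), with upper quartile normalization (1.05, 0.0925), with progesterone as a term (1.32, 0.0743) and without cow 2, 4 or 7. Without each cow in turn it ranged from 0.82 to 1.32. The RGS16 level between progesterone groups, -0.85, passed in DESeq2 (-0.83). The exact permutation of the cows (-0.80) gave the smallest p its splits allow, for RGS16 alone and not adjusted over genes. Without each cow in turn it ranged from -0.95 to -0.74.

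Some values that passed no test changed sign. The RGS16 lane difference, -0.02, was 0.0441 in Control explants, 0.0499 in sPIF explants, 0.36 with progesterone as a term and 0.012 with upper quartile normalization, and -0.46 to 0.21 without each cow in turn. The GNA14 progesterone difference, -0.03, was 0.25 in Control explants, -0.65 with lane as a term and -0.75 to 0.33 without each cow in turn. The RGS16 interaction with lane was 0.0071 without the block and -0.19 to 0.0931 without each cow in turn, and that with progesterone -0.0885 to 0.21. The causes were not tested.

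DESeq2 called 100 genes for sPIF, 24 for progesterone and 175 for the interaction with lane, where edgeR called 0. Without the block edgeR also called 0 genes for sPIF, but genes with an unadjusted p under 0.05 numbered 200 in place of 1061, and the standard error of the RGS16 fold change was 0.24 in place of 0.09. The interaction with progesterone was also fitted with that of lane as a term, chosen after seeing the data (0.08 for RGS16, -0.89 for GNA14). These values are a description only, as cow 1 was the only low progesterone cow of lane 1. GNA14 counts of 49 to 407 limit its precision, and 7 cows limit each test between cows.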
